A study of Homo sapiens with 9 samples.

Results

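The cytosolic chaperone HSP90 and the proteins that assist it were followed in A375R melanoma cells. The set held 10 genes out of the 62710 in the deposited table, chosen by name as HSP90 paralogs (HSP90AA1, HSP90AB1, TRAP1) and co-chaperones (AHSA1, STIP1, FKBP4, PTGES3, CDC37, CHORDC1, UNC45A). All 10 were found once each in the table, and all 10 passed the filter on low values described under the first comparison.

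RNA-seq had been made from A375R, a human melanoma line that resists BRAF inhibition and is kept in medium with 2 µM PLX4032, an analog of vemurafenib. R4VPL3-1 is a PROTAC-like molecule in which a part that binds the ubiquitin ligase RNF4 is joined to a part that binds the ubiquitin ligase VHL, and VHL-r is the VHL-binding part on its own. Each was given at 10 µM for 2 h, and the control cells, whose library titles say WT and give no dose, received DMSO. There were 3 libraries per treatment, stated to be biological repeats. All groups were the same line, so every comparison is between treatments of resistant cells. The library titles do not name PLX4032, and the RNA-seq methods do not say whether it was present during the 2 h.

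HSP90 is an abundant ATP-dependent dimer that finishes the folding of a selected set of client proteins, among them steroid receptors and many kinases, including mutant BRAF in melanoma. Clients are handed over from HSP70, held while HSP90 binds ATP and closes, and released after hydrolysis. Co-chaperones bind at successive stages of this cycle. Several HSP90 system genes are classical targets of the heat shock transcription factor HSF1, which binds inverted repeats of a short GAA unit, the heat shock element.

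The promoter windows of the set are shown first because heat shock element units were unevenly spread over them. RefSeq windows of 300 bases (GRCh38.p14, 250 before to 50 after a transcription start) were on hand as 15 entries for 9 of the 10 genes, and FKBP4 had no entry. They were searched on both strands, overlaps allowed, for 2 adjoining units (GAANNTTC or TTCNNGAA) and for 3 adjoining units (GAANNTTCNNGAA or TTCNNGAANNTTC). Every match of 3 units holds 2 overlapping matches of 2 units. Of all 35116 windows in the RefSeq table, 13.5% held at least 2 adjoining units and 0.49% held 3.

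The 3-unit pattern was present in 3 of the 15 entries, one each of HSP90AA1, HSP90AB1 and CHORDC1. These windows are printed 5′ to 3′ on the strand of the gene with matched units in capitals. The TRAP1 window follows as an example of those without a match. Whether matches go with the differences given below was not tested. The HSP90AA1 window (chr14:102086995-102087294, minus strand) belongs to the start of the canonical transcript, the CHORDC1 window (chr11:90223000-90223299, minus strand) likewise, and so does the TRAP1 window (chr16:3717475-3717774, minus strand). The HSP90AB1 window (chr6:44247693-44247992, plus strand) belongs to a start 842 bases downstream of the canonical one and lies wholly inside the gene, with 173 of its 300 bases outside any annotated exon.
HSP90AA1: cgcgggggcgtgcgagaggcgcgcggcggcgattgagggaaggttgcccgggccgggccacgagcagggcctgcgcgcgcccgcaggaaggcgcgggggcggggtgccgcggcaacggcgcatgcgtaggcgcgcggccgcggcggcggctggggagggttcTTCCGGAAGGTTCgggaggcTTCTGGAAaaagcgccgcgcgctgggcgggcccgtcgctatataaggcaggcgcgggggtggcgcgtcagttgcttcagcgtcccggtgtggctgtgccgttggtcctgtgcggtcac
HSP90AB1: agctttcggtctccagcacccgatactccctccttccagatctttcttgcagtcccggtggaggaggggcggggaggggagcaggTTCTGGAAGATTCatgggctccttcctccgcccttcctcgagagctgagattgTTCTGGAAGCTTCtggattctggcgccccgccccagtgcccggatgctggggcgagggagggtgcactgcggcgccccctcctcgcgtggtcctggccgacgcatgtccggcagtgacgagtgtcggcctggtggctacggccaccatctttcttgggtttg
CHORDC1: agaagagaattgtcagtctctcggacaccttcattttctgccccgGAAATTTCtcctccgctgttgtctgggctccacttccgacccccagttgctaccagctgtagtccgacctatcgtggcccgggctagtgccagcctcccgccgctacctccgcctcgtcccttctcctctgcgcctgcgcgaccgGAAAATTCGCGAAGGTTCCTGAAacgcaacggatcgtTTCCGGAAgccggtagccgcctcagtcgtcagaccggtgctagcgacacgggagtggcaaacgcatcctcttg
TRAP1: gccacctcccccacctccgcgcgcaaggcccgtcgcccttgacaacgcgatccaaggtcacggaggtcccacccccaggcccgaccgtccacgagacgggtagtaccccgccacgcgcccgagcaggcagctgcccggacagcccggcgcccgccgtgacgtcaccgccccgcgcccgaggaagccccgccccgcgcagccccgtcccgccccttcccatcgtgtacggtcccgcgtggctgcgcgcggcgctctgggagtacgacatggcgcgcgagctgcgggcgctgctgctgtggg

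In the HSP90AA1 window the 3-unit match began at -88 from the start, and a further pair at -68. HSP90AB1 had 2 such 3-unit matches, beginning at -165 and -112, while the windows of its other 2 starts, the canonical one included, had none. CHORDC1 had the densest run, 3 overlapping 3-unit matches beginning at -60, -55 and -50, with separate pairs at -205 and -23. STIP1 had a lone pair beginning at +14 in the window of its canonical start. No unit pair was found in the windows of TRAP1, AHSA1, PTGES3, CDC37 and UNC45A. A match is a matter of letters only, and binding was not measured.

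**Figure D1:**
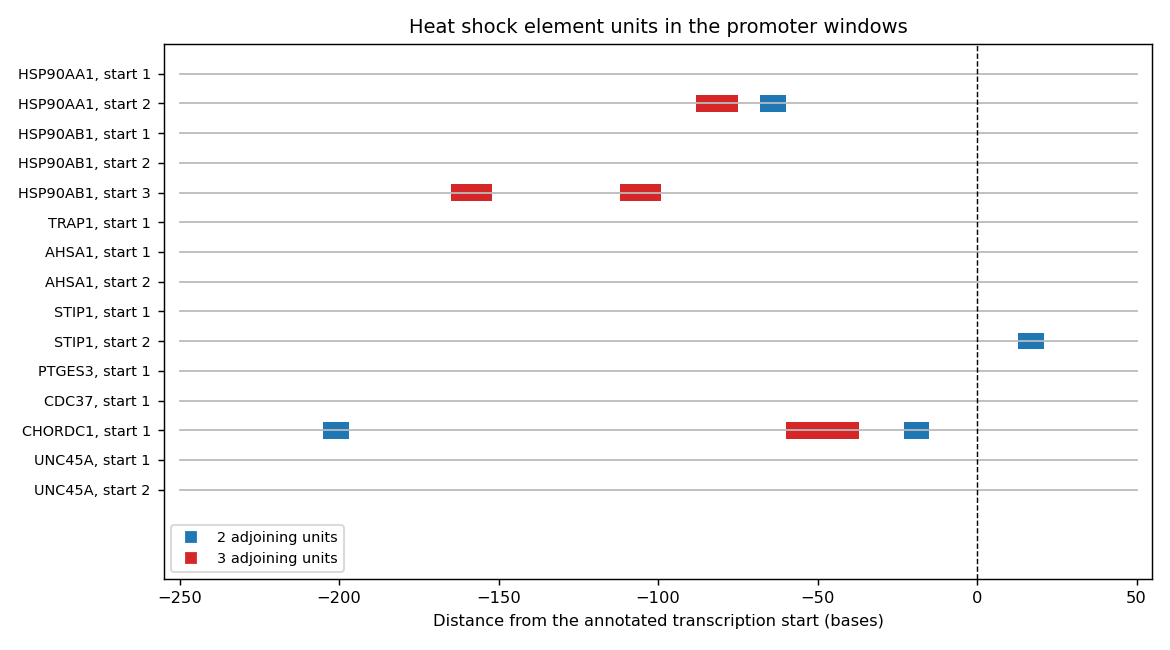
Positions of matches to 2 (blue) and 3 (red) adjoining heat shock element units in the 15 RefSeq promoter windows of the set, drawn by distance in bases from the annotated start (dashed line). Red blocks appear in 1 window each of HSP90AA1, HSP90AB1 and CHORDC1.

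The libraries held 26435568 to 32085626 reads assigned to genes (median 28165279), and each member was read at least 2562 times in every library. Within each treatment, every pair of libraries differed by more than sampling noise. Of 7 markers of melanocytic and neural crest origin, 5 had a mean of at least 10 in every group, MLANA was at 0 in all 9 libraries and TYR did not exceed 2.14 normalized counts. The summed level of these markers was 21595 to 22875 in DMSO, 12605 to 15495 with VHL-r and 11267 to 12826 with R4VPL3-1. SOX10 led this drop, with means of 17547, 10200 and 8405, and its part in the results given here was not tested. Of 6 markers of other cells (keratinocyte, leukocyte, endothelial and fibroblast genes), 4 had a mean of at least 10, and their sum overlapped between treatments, being 1822 to 2421 in DMSO, 1594 to 3233 with VHL-r and 1825 to 2347 with R4VPL3-1. COL1A1 and COL3A1 made up most of that sum. The keratinocyte gene KRT14 was lower with both compounds, at 331 to 365 normalized counts in DMSO, 275 to 303 with VHL-r and 224 to 280 with R4VPL3-1, and the leukocyte gene PTPRC did not exceed 11.8 in DMSO, 5.25 with VHL-r and 2.8 with R4VPL3-1. Their part in the results was not tested.

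Levels within the set were compared per kilobase of canonical transcript. In DMSO cells the cytosolic pair stood far above the rest, with 34000 ± 977 normalized counts per kb for HSP90AB1 and 32456 ± 1298 for HSP90AA1 (SD, n = 3), and the library ranges of these 2 genes overlapped. The order then ran through PTGES3 (11861 ± 343), CDC37 (10034 ± 277), STIP1 (9157 ± 335), AHSA1 (5277 ± 81.3), TRAP1 (3496 ± 137), FKBP4 (2427 ± 37.6), CHORDC1 (1478 ± 68.4) and UNC45A (851 ± 12.8). No other neighbours in this order had overlapping library ranges. When all annotated exons were used as length instead, FKBP4 (1746 per kb) stood above TRAP1 (1499 per kb) and HSP90AB1 (29151 per kb) well above HSP90AA1 (20555 per kb), so these placements rest on which transcripts are assumed. Without regard to length, HSP90AA1 had the 7th and HSP90AB1 the 13th highest normalized count of the 15230 genes tested.

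R4VPL3-1 and VHL-r were compared first, at the same dose and time, since they differ by the RNF4-binding part and its link. HSP90AA1 and CHORDC1 rose with the full molecule by 28.3% and 24.2%, no member fell, and the other 8 did not pass the test. Differences are between means of log2(normalized count + 1), tested with limma over 15230 genes with a mean normalized count of at least 10, and genes with a p of at most 0.05 after Benjamini-Hochberg adjustment were called. Among all genes tested, 1.14% were called higher and 0.729% lower in this comparison, against 2 and 0 of the 10 members. The median log2 difference of the members was 0.10, and that of all genes tested was -0.01. All 10 members had a difference above 0, as did 7244 of the 15230 genes tested. The differences of TRAP1, CDC37 and UNC45A were 0.01 each on the log2 scale. An unadjusted p under 0.05 by limma was found for 7 members and for 1508 of all genes tested. Among the 2440 genes with a mean level at least that of UNC45A, the least abundant member, 1.93% were called higher.

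HSP90AA1 (ENSG00000080824, chr14:102080742-102139699, minus strand, GRCh38) encodes the stress-inducible form of cytosolic HSP90. Its normalized counts were 103861, 109336 and 101106 in the DMSO libraries, 113643, 109242 and 106556 with VHL-r, and 147746, 141694 and 133094 with R4VPL3-1. All R4VPL3-1 libraries lay above every other library, and the VHL-r and DMSO libraries overlapped. The log2 difference from VHL-r was 0.36 (SE 0.0473, limma adjusted p = 6.59e-05), with a 95% interval of 19.7% to 37.3% higher. The call held in every alternative analysis and with any 1 library left out. By size, 4.72% of the genes tested had a larger log2 difference.

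CHORDC1 (ENSG00000110172, chr11:90200429-90223077, minus strand) encodes a zinc-binding protein with CHORD domains that associates with HSP90. It was read at 4401, 4780 and 4432 normalized counts in DMSO, at 4807, 4506 and 4213 with VHL-r, and at 6132, 5459 and 5214 with R4VPL3-1. The lowest R4VPL3-1 library stood above the highest of the other 6. The log2 difference from VHL-r was 0.31 (SE 0.0586, limma adjusted p = 0.00322), a rise of 14% to 35.1% by its 95% interval, and this call too held in every alternative analysis and with any 1 library left out.

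HSP90AB1 (ENSG00000096384, chr6:44246166-44253888, plus strand) encodes the constitutive cytosolic form. Normalized counts were 89421, 84432 and 86758 in DMSO, 90951, 89413 and 95030 with VHL-r, and 103518, 103018 and 99513 with R4VPL3-1. The R4VPL3-1 libraries again lay above all others, but the difference from VHL-r (log2 0.15, SE 0.0420, 95% interval 4.6% to 18.1% higher) had a limma adjusted p = 0.0727 and was not called. It passed with upper quartile rescaling (adjusted p = 0.0343), with limma's robust option (adjusted p = 0.028), and with edgeR (adjusted p = 0.0353) and DESeq2 (adjusted p = 0.00675) on the recovered reads. In 17 of the 21 alternatives it stayed uncalled, with a limma adjusted p of up to 0.439.

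Of the co-chaperones that act on the cycle itself, AHSA1 (Aha1, which stimulates the ATPase of HSP90) had 6879, 7003 and 7305 normalized counts with VHL-r and 7781, 7875 and 7605 with R4VPL3-1. These ranges did not overlap, yet the log2 difference of 0.14 (95% interval 3.54% to 16.5% higher) had a limma adjusted p = 0.12, and only DESeq2 on the recovered reads called it (adjusted p = 0.0494). STIP1 (Hop, which links HSP70 to HSP90), PTGES3 (p23, which binds the closed ATP state) and FKBP4 (FKBP52, an immunophilin of steroid receptor complexes) each had a log2 difference of 0.10 or 0.11, with limma adjusted p of 0.39, 0.37 and 0.377. FKBP4 libraries did not overlap between these 2 treatments, being 8404, 8675 and 9204 with VHL-r and 9335, 9532 and 9316 with R4VPL3-1. In all, 5 members (HSP90AA1, HSP90AB1, AHSA1, FKBP4 and CHORDC1) had every R4VPL3-1 library above every VHL-r library, as did 6.99% of all genes tested.

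The remaining 3 members had differences close to 0. CDC37, the adaptor that brings kinase clients to HSP90, had a log2 difference of 0.01 with a 95% interval of -5.46% to 6.67%. TRAP1, the mitochondrial paralog, had 0.01 with an interval of -5.27% to 7.16%. UNC45A, a myosin-directed co-chaperone, had 0.01 with an interval of -6.52% to 7.75%. A change as large as that of HSP90AA1 or CHORDC1 lay outside each of these 3 intervals.

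**Figure D2:**
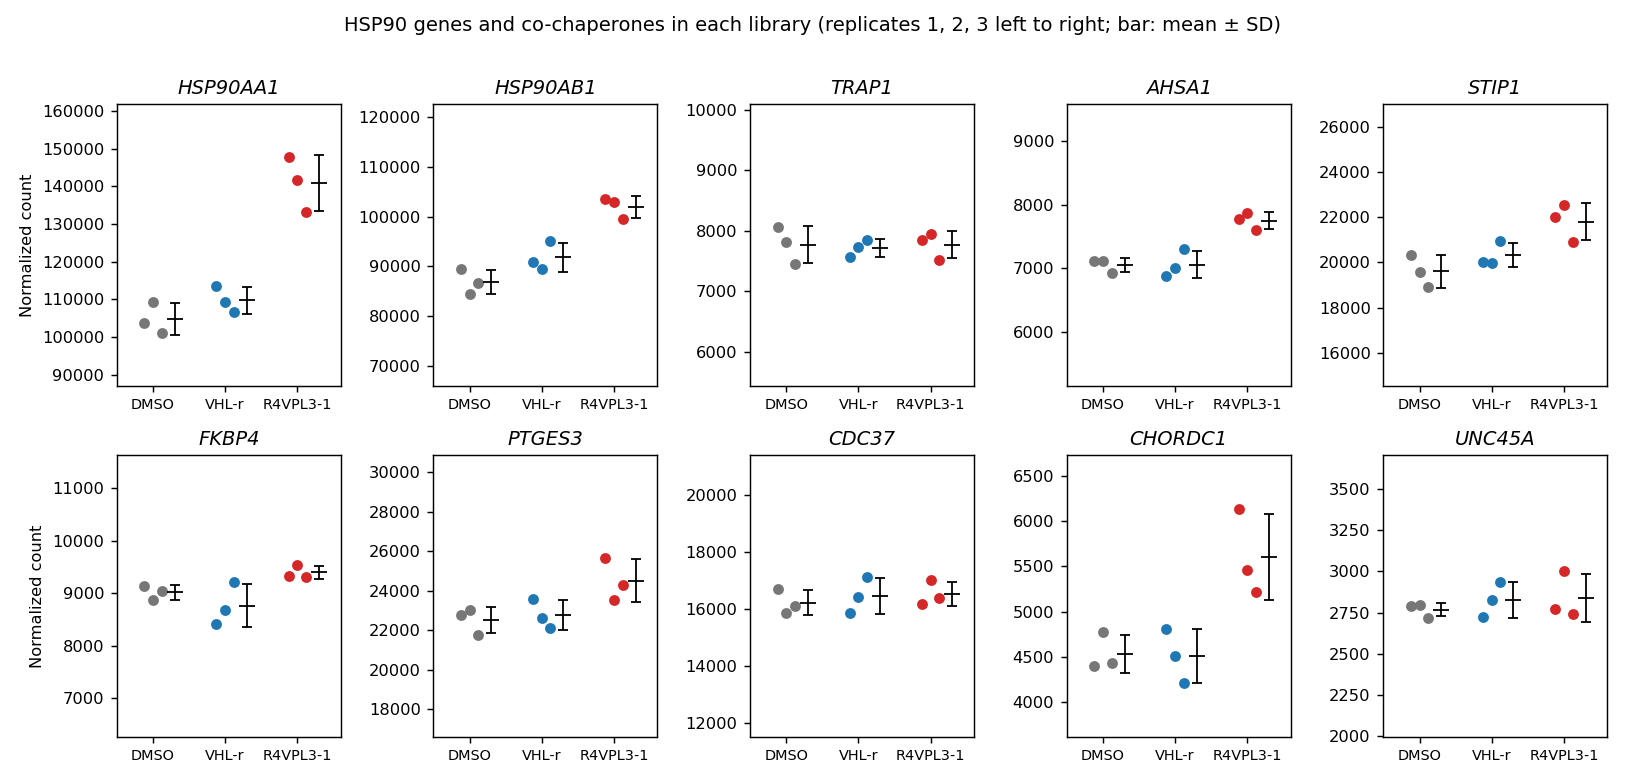
Normalized counts of each member, 1 point per library with replicates 1 to 3 from left to right and the mean ± SD (n = 3) beside them. Axes do not start at 0, and each covers the same relative span, so heights can be compared between panels. The R4VPL3-1 points of HSP90AA1, HSP90AB1, AHSA1, FKBP4 and CHORDC1 sit above all VHL-r points, while those of TRAP1, CDC37 and UNC45A are mixed with them.

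**Figure D3:**
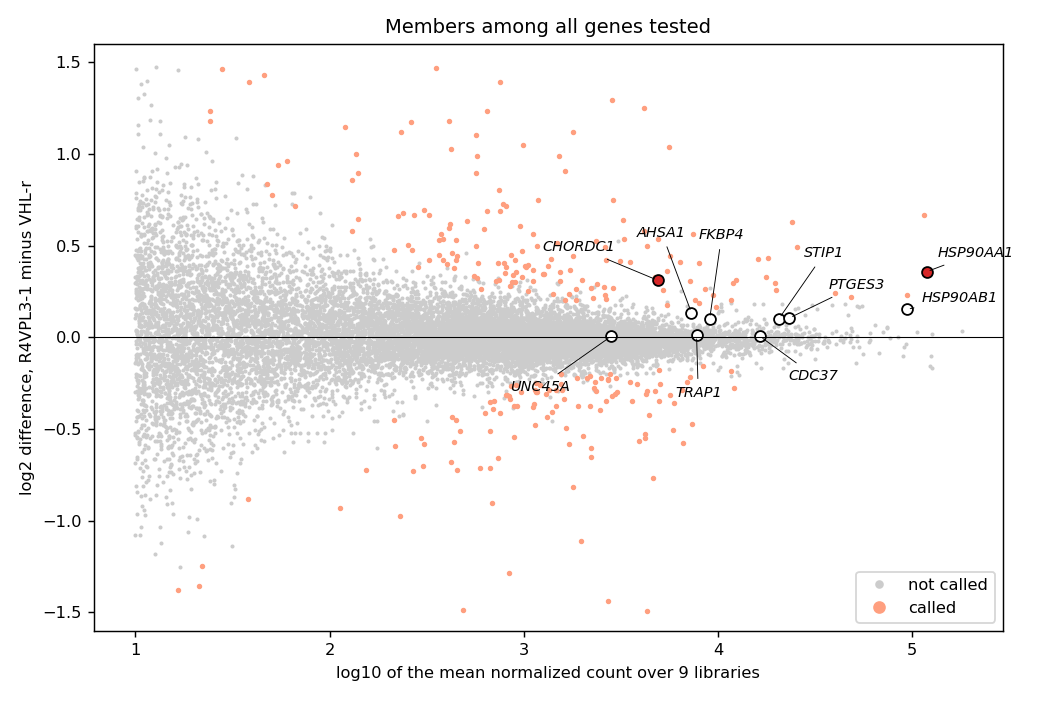
log2 difference between R4VPL3-1 and VHL-r against the log10 mean normalized count for the 15230 genes tested, with called genes in orange and the members circled (filled where called). HSP90AA1 and CHORDC1 are the filled members, and 20 genes lie beyond the plotted range of 1.6 in either direction.

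R4VPL3-1 against DMSO gave the effect of the whole molecule. Here 6 of the 10 members rose (HSP90AA1, HSP90AB1, CHORDC1, STIP1, AHSA1 and PTGES3) and none fell, where 13.1% of all genes tested were called higher and 11.8% lower. Among the 2440 genes at least as abundant as UNC45A, 8.98% were called higher. The member median was 0.13 on the log2 scale, beside -0.01 for all genes tested. This comparison and the previous one share the R4VPL3-1 libraries, so they are not separate evidence.

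HSP90AA1 rose by 34.4% (log2 0.43, SE 0.0473, limma adjusted p = 7.19e-07), HSP90AB1 by 17.4% (log2 0.23, SE 0.0420, adjusted p = 0.000273) and CHORDC1 by 23.4% (log2 0.30, SE 0.0586, adjusted p = 0.000562). These 3 calls held in every alternative, an adjusted p of at most 0.01 included. In reads the cytosolic pair dominated. HSP90AA1 and HSP90AB1 together took 0.663% to 0.681% of all reads in the DMSO libraries, 0.703% to 0.726% with VHL-r and 0.822% to 0.888% with R4VPL3-1.

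The rises of the other called members were smaller and less secure. STIP1 had 20327, 19572 and 18892 normalized counts in DMSO and 22005, 22531 and 20889 with R4VPL3-1, a rise of 11.3% (limma adjusted p = 0.0105). AHSA1 had 7116, 7120 and 6930 in DMSO against the R4VPL3-1 values given above, a rise of 9.89% (limma adjusted p = 0.0171). PTGES3 had 22759, 23002 and 21774 in DMSO and 25677, 23546 and 24300 with R4VPL3-1, a rise of 8.87% (limma adjusted p = 0.0437). The R4VPL3-1 libraries of all 3 lay above the DMSO libraries, but each call depended on single libraries. Without DMSO replicate 3 the adjusted p was 0.0567 for STIP1, 0.0639 for AHSA1 and 0.159 for PTGES3, leaving 3 called members. Without R4VPL3-1 replicate 2 it was 0.0633 for STIP1 and 0.0671 for AHSA1, and without R4VPL3-1 replicate 1 it was 0.0549 for AHSA1 and 0.224 for PTGES3. PTGES3 was also not called without DMSO replicate 1 (adjusted p = 0.063), DMSO replicate 2 (0.0675), VHL-r replicate 2 (0.0698) or R4VPL3-1 replicate 3 (0.056), nor without the filter on low values (0.0924) or with only the 6 libraries compared (0.0531).

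FKBP4 had 9142, 8866 and 9040 normalized counts in DMSO, all below the R4VPL3-1 libraries, but its difference of 4.19% was not called (limma adjusted p = 0.341, 95% interval -1.92% to 10.7%). With the 6 called genes it made 7 members with every R4VPL3-1 library above every DMSO library, as had 19.1% of all genes tested. The other 3 members were again near 0, with differences of 0.00965% for TRAP1 (95% interval -5.95% to 6.39%), 1.87% for CDC37 (-4.09% to 8.22%) and 2.58% for UNC45A (-4.52% to 10%). TRAP1 libraries were 8055, 7810 and 7449 in DMSO and 7847, 7953 and 7515 with R4VPL3-1, fully intermixed. In bulk RNA, a change in RNA per cell cannot be told apart from a change in the mix of cells that responded.

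VHL-r against DMSO showed what the VHL-binding part did alone. No member was called in either direction by limma, edgeR or DESeq2. By limma, 10.3% of all genes tested were called higher and 9.51% lower. An unadjusted p under 0.05 was found by limma for 0 members and for 4609 of the 15230 genes tested. The member log2 differences ran from -0.04 (FKBP4) to 0.08 (HSP90AB1), with a median of 0.02 beside -0.0045 for all genes tested. For HSP90AA1 the difference was 4.82% (95% interval -2.09% to 12.3%), for HSP90AB1 5.67% (-0.56% to 12.3%) and for CHORDC1 -0.638% (-8.78% to 8.06%). The libraries of all 10 members overlapped between VHL-r and DMSO. Among all genes tested, 17.1% had every VHL-r library above every DMSO library, and the share with every VHL-r library below was not counted.

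**Figure D4:**
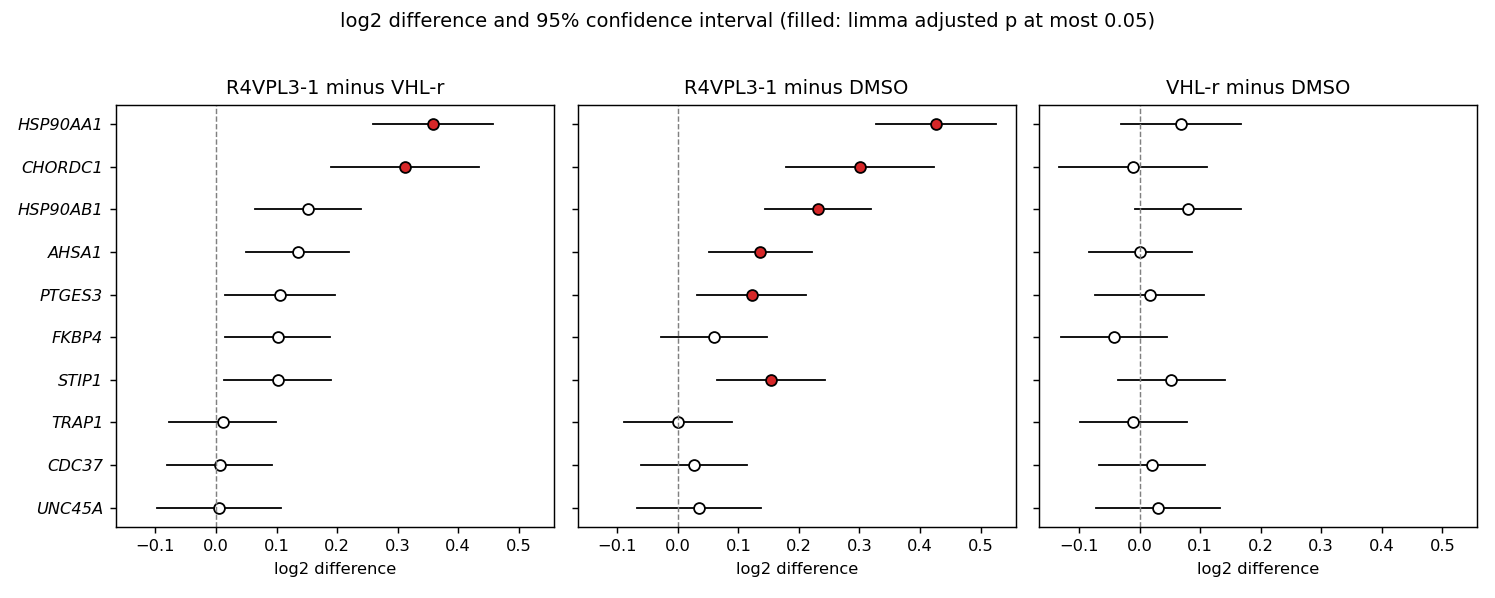
log2 differences of the 10 members in the 3 comparisons with 95% confidence intervals from the limma fit, filled where the adjusted p was at most 0.05. There are 2 filled points for R4VPL3-1 minus VHL-r, 6 for R4VPL3-1 minus DMSO and 0 for VHL-r minus DMSO.

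The balance between the 2 cytosolic forms was then examined within each library, a ratio that no scaling between libraries can change. HSP90AA1 reads per HSP90AB1 read were 1.16, 1.29 and 1.17 in DMSO, 1.25, 1.22 and 1.12 with VHL-r, and 1.43, 1.38 and 1.34 with R4VPL3-1. All R4VPL3-1 libraries were higher than all others, and the other groups overlapped. The means were 1.21 ± 0.076, 1.20 ± 0.0675 and 1.38 ± 0.0451 (SD, n = 3), and the exact two-sided permutation p was 0.1 against VHL-r and 0.1 against DMSO, the smallest that 3 against 3 libraries can give. For VHL-r against DMSO the exact permutation p was 1. The inducible form thus gained more reads, proportionally, than the constitutive one in these libraries. Per kilobase of canonical transcript HSP90AA1 was at 43632 ± 2281 and HSP90AB1 at 39928 ± 854 with R4VPL3-1 (SD, n = 3), without overlap and in reverse of the DMSO order of means, but over all annotated exons HSP90AB1 remained higher (34234 against 27633 per kb).

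**Figure D5:**
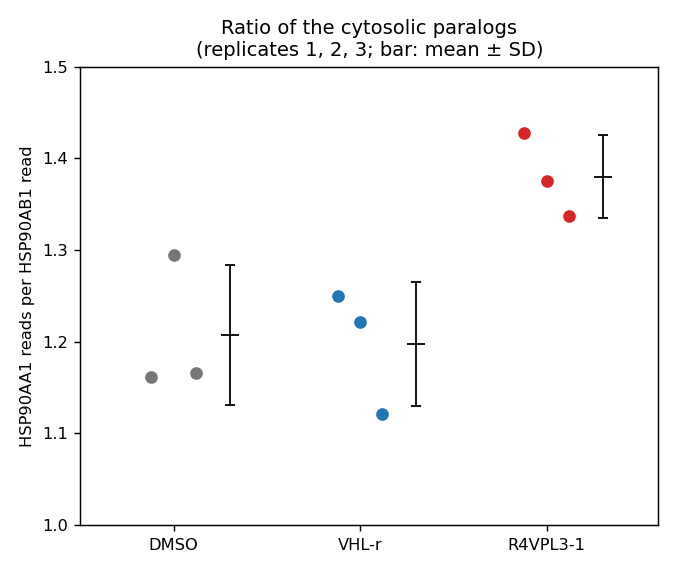
HSP90AA1 reads per HSP90AB1 read in each of the 9 libraries, replicates 1 to 3 from left to right, with the mean ± SD (n = 3) beside them. The vertical axis starts at 1. The R4VPL3-1 libraries lie between 1.34 and 1.43, above the highest other library at 1.29.

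Stretches identical to another gene were few, and stretches that differ by some bases were not counted. Of the 100-base windows of the canonical transcript, 2.33% for HSP90AA1, 1.67% for HSP90AB1, 3.45% for PTGES3 and 2.12% for CHORDC1 also occur in another gene, chiefly processed pseudogenes, and 0% for the other 6. The pseudogenes HSP90AA2P, HSP90AB3P, PTGES3P1 and PTGES3P3 passed the filter at group means of 11.3 to 80.5 normalized counts, and none was called in any comparison. CHORDC1P4 and CHORDC1P1, which share windows with CHORDC1, and HSP90AA3P, which shares windows with HSP90AA1, were not examined. Exon bases shared with another gene on the same strand made up 1.25% for TRAP1 and 2.66% for CDC37.

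Beyond the set, a wider list of 30 HSP90 partners and cofactors was read the same way, 25 of which passed the filter. FNIP1, FLCN, UNC45B, PTGES3L and HSP90B2P were listed at 0 in every library. Overlap with other genes was examined for the members only, so a listed 0 need not mean absent RNA. Between R4VPL3-1 and VHL-r, where 1.14% of all genes tested were called higher and 0.729% lower, 1 rose and 0 fell (median log2 difference 0.00). That gene was CACYBP, the calcyclin-binding protein, with 9415, 9369 and 9260 normalized counts with VHL-r and 10339, 10645 and 10421 with R4VPL3-1 (12% higher, limma adjusted p = 0.0275). Its call was lost without VHL-r replicate 2 (adjusted p = 0.136), VHL-r replicate 3 (0.0902), R4VPL3-1 replicate 1 (0.0772) or R4VPL3-1 replicate 2 (0.145), and without the filter on low values (0.0717). HSP90B1 (GRP94), the paralog of the endoplasmic reticulum, was not called in any comparison, with differences of 3.23%, 4.39% and 1.13% in the order R4VPL3-1 against VHL-r, R4VPL3-1 against DMSO and VHL-r against DMSO.

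Against DMSO, 6 of the 25 rose with R4VPL3-1 and 0 fell (median -0.01), and 4 rose and 1 fell with VHL-r (median -0.02). Of all genes tested, 13.1% were called higher and 11.8% lower with R4VPL3-1, and 10.3% higher and 9.51% lower with VHL-r. TSC1, a tumour suppressor that also acts as an HSP90 co-chaperone, had 962, 972 and 1022 normalized counts in DMSO, 1229, 1245 and 1357 with VHL-r, and 1337, 1247 and 1378 with R4VPL3-1. It was 34% higher with R4VPL3-1 (limma adjusted p = 1.86e-05) and 29.6% higher with VHL-r (adjusted p = 0.000106), and its difference between the compounds was 3.41% (95% interval -5.18% to 12.8%, adjusted p = 0.901). CDC37L1, a relative of CDC37, was 16.9% higher with R4VPL3-1 (limma adjusted p = 0.00653) and 21.2% higher with VHL-r (adjusted p = 0.0015). These 2 genes were called higher than DMSO with either compound, comparisons that share the DMSO libraries, and all 4 calls held with any 1 library left out. PPID (cyclophilin 40), an immunophilin, was 13.2% higher with R4VPL3-1 (limma adjusted p = 0.00765), also with any 1 library left out, and 6.79% higher with VHL-r (adjusted p = 0.185, not called).

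CACYBP was 12.2% higher with R4VPL3-1 than in DMSO (limma adjusted p = 0.00284), a call that also held with any 1 library left out. The calls of AHSA2P, SUGT1, FKBP5 and TELO2 did not. AHSA2P, a pseudogene related to AHSA1, was 25.2% higher than in DMSO (adjusted p = 0.0455) with overlapping libraries, and its adjusted p was 0.239, 0.134, 0.0534, 0.0612, 0.285 and 0.0538 without DMSO replicate 1, DMSO replicate 2, VHL-r replicate 1, VHL-r replicate 2, R4VPL3-1 replicate 1 and R4VPL3-1 replicate 2. SUGT1, which links HSP90 to ubiquitin ligases and innate immune sensors, was 11.6% higher with R4VPL3-1 (adjusted p = 0.027) and 11.8% higher with VHL-r (adjusted p = 0.0304). The first call was lost without DMSO replicate 3 (0.129), R4VPL3-1 replicate 1 (0.0725) or R4VPL3-1 replicate 3 (0.0701), and the second without DMSO replicate 1 (0.0557), DMSO replicate 3 (0.143) or VHL-r replicate 1 (0.145). FKBP5 (FKBP51), the counterpart of FKBP4 in steroid receptor complexes, was 15.8% higher with VHL-r (adjusted p = 0.0121), a call lost without DMSO replicate 3 (0.0723) or VHL-r replicate 2 (0.0642), and 11.4% higher with R4VPL3-1 (adjusted p = 0.0543, not called). The latter passed with TMM rescaling (0.0422), upper quartile rescaling (0.0276) and edgeR (0.0366), and without DMSO replicate 1 (0.0376), VHL-r replicate 3 (0.0455) or R4VPL3-1 replicate 3 (0.0353). TELO2, part of the complex that loads kinases of the PIKK family, was the gene that fell with VHL-r, by log2 -0.16 (adjusted p = 0.0487), and is named after its value was seen. Its call was lost without DMSO replicate 1 (0.166), DMSO replicate 3 (0.118), VHL-r replicate 1 (0.112), VHL-r replicate 2 (0.0814), VHL-r replicate 3 (0.109) or R4VPL3-1 replicate 1 (0.0513). Without the filter on low values, neither AHSA2P (0.0628) nor SUGT1 (0.0504 with R4VPL3-1, 0.0565 with VHL-r) was called.

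The genes whose pattern over the 9 libraries was closest to that of HSP90AA1 were other chaperone genes and 1 noncoding RNA host gene. By Pearson correlation of log2(normalized count + 1), the 5 nearest genes outside the set were HSPH1 (HSP110, r = 0.99), HSPA8 (HSC70, r = 0.98), DNAJA1 (a J-domain partner of HSP70, r = 0.98), SNHG1 (r = 0.98) and HSPD1 (mitochondrial HSP60, r = 0.98). Their log2 differences between R4VPL3-1 and VHL-r were 0.49, 0.67, 0.43, 0.50 and 0.24. Within the set CHORDC1 was the nearest (r = 0.95), followed by HSP90AB1 (0.89), AHSA1 (0.89), PTGES3 (0.88) and STIP1 (0.84), with FKBP4 at 0.55, UNC45A at 0.23, TRAP1 at 0.14 and CDC37 at 0.10. These values describe 9 libraries in 3 treatments that share their size factors, so they are not independent points and no test is given.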

How the data were processed

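Per the labels and methods, poly(A) RNA was made into stranded libraries, read as single 100-base reads, aligned with STAR 2.5.3a to GRCh38 (Ensembl 109) and counted with htseq-count 2.0.2. The deposited signal values are gene counts that the authors divided by DESeq2 1.36.0 size factors. Whole reads were recovered from the step of each column (100% of values above 0 within 0.01 of a whole number). Every column was used. The main test was limma 3.58.1 (R 4.3.3, trend) on log2(value + 1) over genes with a mean of at least 10, all 9 libraries in 1 model, with Benjamini-Hochberg adjustment. edgeR 4.0.16 and DESeq2 1.42.0 on recovered reads, other pseudocounts, filters, scalings, thresholds and left-out libraries were alternatives. The test was also run on simulated data with the same spread setting for every gene. The simulated differences were larger than those of most members, so that check does not cover differences as small as theirs. Fold changes on this scale understate changes of low genes. The members and lists were chosen with earlier results of these data known. From the wider list, genes called between R4VPL3-1 and VHL-r and up to 4 largest called differences in each other comparison were named. Lengths come from GENCODE 44 and promoters from RefSeq.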

Additional observations from a re-analysis of the deposited data

How the results depend on the processing

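HSP90AA1 and CHORDC1 (R4VPL3-1 against VHL-r) and HSP90AA1, HSP90AB1 and CHORDC1 (R4VPL3-1 against DMSO) kept their calls under all 21 alternatives, and of 1134 gene results over alternatives 1033 kept direction and side of the threshold, 57 lost the call, 12 gained it and 32 changed sign. Members called higher in R4VPL3-1 against VHL-r were 2 by limma, 3 by edgeR and 4 by DESeq2, and against DMSO 6, or 3 at an adjusted p of at most 0.01 and 3 to 6 with 1 library left out. The share of all genes called higher was counted for the main limma fit only (1.14% against VHL-r and 13.1% against DMSO). Counts under the alternatives therefore cannot be set beside a share, and a larger count may go with more calls among all genes. In the wider list the 1 gene called higher against VHL-r became 0 without the filter and at 0.01, and 0 to 1 with a library left out. The 1 called lower with VHL-r became 0 without the filter, with TMM, upper quartile, DESeq2 and 0.01, and 0 to 1 with a library left out, and the 4 called higher became 2 at 0.01 and 2 to 5 with a library left out. Sign changes were all among uncalled values, and these were near 0 except for AHSA2P between VHL-r and DMSO (-0.1119 without DMSO replicate 1). With single libraries left out, log2 differences between R4VPL3-1 and VHL-r ran from -0.006 to 0.0348 for TRAP1, -0.0209 to 0.0351 for CDC37, -0.0363 to 0.033 for UNC45A and -0.0339 to 0.0368 for SUGT1 (0.0013 with TMM, 0.0072 with upper quartile, 0.0021 by edgeR). Between R4VPL3-1 and DMSO they ran from -0.0297 to 0.0267 for TRAP1 and -0.0058 to 0.0599 for UNC45A. Between VHL-r and DMSO they ran from -0.0405 to 0.0159 for TRAP1, -0.0235 to 0.0198 for AHSA1, -0.0097 to 0.0378 for PTGES3, -0.0082 to 0.0478 for CDC37, -0.0576 to 0.0376 for CHORDC1, -0.0082 to 0.0229 for CACYBP and -0.1119 to 0.1529 for AHSA2P (-0.0039 by edgeR, -0.0089 by DESeq2). The cause was not tested. Same-numbered libraries were at most weakly alike in their deviations from the group mean (correlations -0.0056 to 0.121). HSP90AA1 and CHORDC1 fell from replicate 1 to 3 with both compounds, and in DMSO both were highest in replicate 2. Whether replicate order played a part was not tested. With the replicate as a block 2, 6 and 0 members were called higher in the 3 comparisons, as without it. FKBP5 in R4VPL3-1 against DMSO gained its call with the block (limma adjusted p = 0.0246).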
